A study of Homo sapiens with 16 samples.

Results

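To examine whether activation of the receptor Fn14 alters enhancer acetylation around genes of plasminogen activation, H3K27ac peaks were recorded at 5 genes linked to tumour cell invasion, PLAU, PLAUR, PLAT, SERPINE2 and SERPINB2, of 20046 protein-coding genes in all. The genes were chosen by their role, with earlier results of these data known. H3K27ac, acetylation of lysine 27 of histone H3, marks active promoters and enhancers. The cells were MDA-MB-231 and Hs578T, 2 established human triple-negative breast cancer (TNBC) lines, and each was used both as a CRISPR control and after knockout (KO) of Fn14. Fn14 is the receptor of the cytokine TWEAK and is encoded by TNFRSF12A. All cells were starved for 8 h, and were then left untreated or given TWEAK at 10 ng/ml for 48 h, with a fresh dose at 24 h. The 8 groups formed by line, genotype and treatment had 2 replicates each, which gave 16 peak lists. The Fn14 KO cells were made with an inducible Cas9 vector and 2 guides, and were identified by western blot and Sanger sequencing. The study lists the sequencing primers among those for CRISPR clones, and how many clones each KO line holds is not given in the sources used here. Both lines are tumour cells grown in culture without stroma, which limits these groups as a model.

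Plasminogen is an inactive protein of plasma and tissue fluid that is cut by specific proteases into plasmin, which digests fibrin and extracellular matrix. PLAU encodes urokinase (uPA), the activator that works at the cell surface when bound to its receptor uPAR, the product of PLAUR. PLAT encodes tissue-type activator (tPA), best known for dissolving fibrin clots. SERPINB2 encodes PAI-2, an inhibitor of both activators, and SERPINE2 encodes protease nexin-1, which inhibits thrombin, urokinase and plasmin. In breast tumours, uPA and its inhibitors have long been measured as markers of invasive growth.

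The 16 lists held 39544 to 47197 broad peaks, which covered 64.2 to 88.9 Mb. The lists hold no reads, so sequencing depth is unknown and the agreement of the 2 lists of a group is the only measure of error. Fold enrichment, the ratio of signal to local background given for each peak by the authors' peak caller, had a median of 6.27 to 7.33 over the regions shared by all lists in the 4 MDA-MB-231 Fn14 KO lists and of 7.38 to 8.41 in the other 12. Each result below that rests on fold enrichment is therefore also stated after division by this median (called rescaled) where the call changed. The promoters of the mesenchymal and keratin genes VIM, CD44, AXL, ZEB1, KRT8 and KRT18 carried a peak in 16 of 16 lists. ESR1, PGR and GATA3 carried one in 0 lists, FOXA1 in 2 and ERBB2, at a fold enrichment of at most 3.76, in 12. Of genes of other cell types, PTPRC, CDH5, MYOD1 and ALB carried a promoter peak in 0 lists and PECAM1, an endothelial and blood cell gene, in 6, of which 5 were Hs578T lists (fold enrichment 2.79 to 18.6). The part of this gene's signal in the results below was not tested. A promoter peak at TNFRSF12A was present in 16 of 16 lists (fold enrichment 16.2 to 38.2), also in the KO cells, so these lists do not check the knockout.

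Of the regions that rose with TWEAK in control cells of both lines, 4 that lie upstream of PLAU, PLAUR and SERPINB2 are shown here, by the 200 bases of each that hold the most matches to AP-1 or NF-kB, factors known to act downstream of Fn14. Letters are hg38, plus strand. Capitals mark TGANTCA (AP-1, which reads the same on both strands) and GGNNTTTCC (NF-kB, searched on both strands), and the 2 patterns cannot overlap. N is any base. The middle base of the AP-1 matches in these 4 stretches is A or T at PLAU and SERPINB2 and C at PLAUR. None of these 4 stretches touches an annotated exon. They lie at chr10:73889066-73889265 and chr10:73899018-73899217 for PLAU, at chr19:43675512-43675711 for PLAUR and at chr18:63869923-63870122 for SERPINB2.
PLAU, 22.5 kb upstream: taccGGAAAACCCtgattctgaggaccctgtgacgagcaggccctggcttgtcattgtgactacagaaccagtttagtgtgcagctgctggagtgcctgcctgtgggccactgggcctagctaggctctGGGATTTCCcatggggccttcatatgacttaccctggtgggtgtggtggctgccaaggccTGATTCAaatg
PLAU, 11.9 kb upstream: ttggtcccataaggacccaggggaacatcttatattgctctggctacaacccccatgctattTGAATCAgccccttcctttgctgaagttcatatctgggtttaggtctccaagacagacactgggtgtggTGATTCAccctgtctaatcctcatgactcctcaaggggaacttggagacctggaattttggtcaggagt
PLAUR, 5.0 kb upstream: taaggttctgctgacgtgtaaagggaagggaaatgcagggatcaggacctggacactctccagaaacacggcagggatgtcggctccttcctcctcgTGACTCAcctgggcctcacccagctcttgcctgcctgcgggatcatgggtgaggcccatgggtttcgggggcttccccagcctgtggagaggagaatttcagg
SERPINB2, 17.9 kb upstream: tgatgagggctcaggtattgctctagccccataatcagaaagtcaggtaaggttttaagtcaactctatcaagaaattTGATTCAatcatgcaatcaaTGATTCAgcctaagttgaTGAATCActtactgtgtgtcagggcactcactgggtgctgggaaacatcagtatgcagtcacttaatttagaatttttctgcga

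The SERPINB2 stretch holds 3 AP-1 matches, and 762 of 55219 regions (1.38%) have 3 in some stretch of 200 bases. Over its whole width this region has 3 AP-1 matches, as many as 14.4% of regions of like width (within 20%) have. The PLAU region at 22.5 kb has 2 NF-kB matches, against as many in 20.7% of regions of like width, and 3 AP-1 matches, against 36.2%. For the PLAU region at 11.9 kb these were 3 AP-1 matches, against 29.1%, and 1 NF-kB match, against 49.3%. The PLAUR region has 1 AP-1 match, which 65.1% of like regions have. The SERPINB2 region 6.1 kb upstream, which also rose in both lines, has 5 AP-1 matches, against 8.64%. However, the PLAU region 16.8 kb upstream, which fell in Hs578T control cells, also has 5, against 7.67%. The SERPINE2 region 15.9 kb from its start, gained in MDA-MB-231 control cells, has 2 NF-kB matches, against 2.93%. Anywhere in a region, AP-1 letters occur in 64.5% and NF-kB letters in 31.6% of all 55219 regions. The SERPINE2 start region has 0 matches to either pattern. Of the 300-base RefSeq promoters (GRCh38.p14), those of PLAUR and SERPINB2 hold 1 AP-1 match each, as do 7.71% of 35116 promoters, and those of PLAU and SERPINE2 hold 0. A match is a description of letters and not a bound site. The 2 promoter matches are shown in 29 bases 5′ to 3′ on the strand of the gene, at chr19:43670338-43670366 (minus strand, inside the first exon of a longer PLAUR transcript) and chr18:63887592-63887620 (plus strand), with the first base of the match at −186 and −102 from the RefSeq start.
PLAUR promoter: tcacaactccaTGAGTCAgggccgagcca
SERPINB2 promoter: gagtaaaatgtTGAATCActcaaaggaca

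Within the 5 gene bodies extended by 50 kb on each side lay 41 acetylated regions, each a merged interval with a peak in at least 2 lists, and 30 could be tested because no list lacked a peak there. Regions are named by the distance of their centre from the start of the canonical transcript. In control MDA-MB-231 cells, TWEAK raised fold enrichment in 8 of the 30 regions and lowered it in 4, against 19.3% higher and 11.0% lower over all 28337 regions tested (limma, Benjamini-Hochberg over all regions). Of the 30 regions in control Hs578T cells, 6 rose and 3 fell, against 15.6% and 9.39% over all regions. The counts of the members are thus near the share of all regions, and what follows is which regions they are. The 8 and 6 that rose lay at PLAU (3 and 2), PLAUR (2 and 2), SERPINB2 (2 and 2) and SERPINE2 (1 and 0), and the 4 and 3 that fell at PLAU (1 and 1) and PLAT (3 and 2). In Fn14 KO cells 0 of the 30 regions passed the test in either line, where over all regions the share was 0% in both, with 220 higher and 1172 lower at an unadjusted p under 0.05 in MDA-MB-231 and 181 and 229 in Hs578T. The TWEAK effect itself differed between control and KO cells in 10 of the 30 regions in MDA-MB-231, 8 higher and 2 lower in control cells, against 14.6% and 4.15% over all regions. For Hs578T this held for 4 regions, all higher, against 7.10% and 3.50%. The median log2 difference with TWEAK over the 30 regions was 0.14 and 0.11, against 0.06 and 0.05 over all regions. Rescaling moved the share of calls that were higher, over all regions, from 63.7% to 49.1% (MDA-MB-231) and from 62.4% to 51.6% (Hs578T) with TWEAK, and from 77.9% to 52.8% and from 67.0% to 54.6% for control against KO cells. With TWEAK it left 7 of the members' regions higher and 4 lower in MDA-MB-231, against 4945 and 5134 of all 28337 regions. In Hs578T it left 6 and 3, against 4316 and 4044. For control against KO cells it left 6 higher and 2 lower in MDA-MB-231, against 3278 and 2936. The same comparison in Hs578T left 3 higher and 1 lower, against 2266 and 1882. There the start region of PLAU lost its call and the PLAU region 16.8 kb upstream gained one (−0.62, adjusted p = 0.0279, against −0.56, adjusted p = 0.134, before rescaling).

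**Figure D1:**
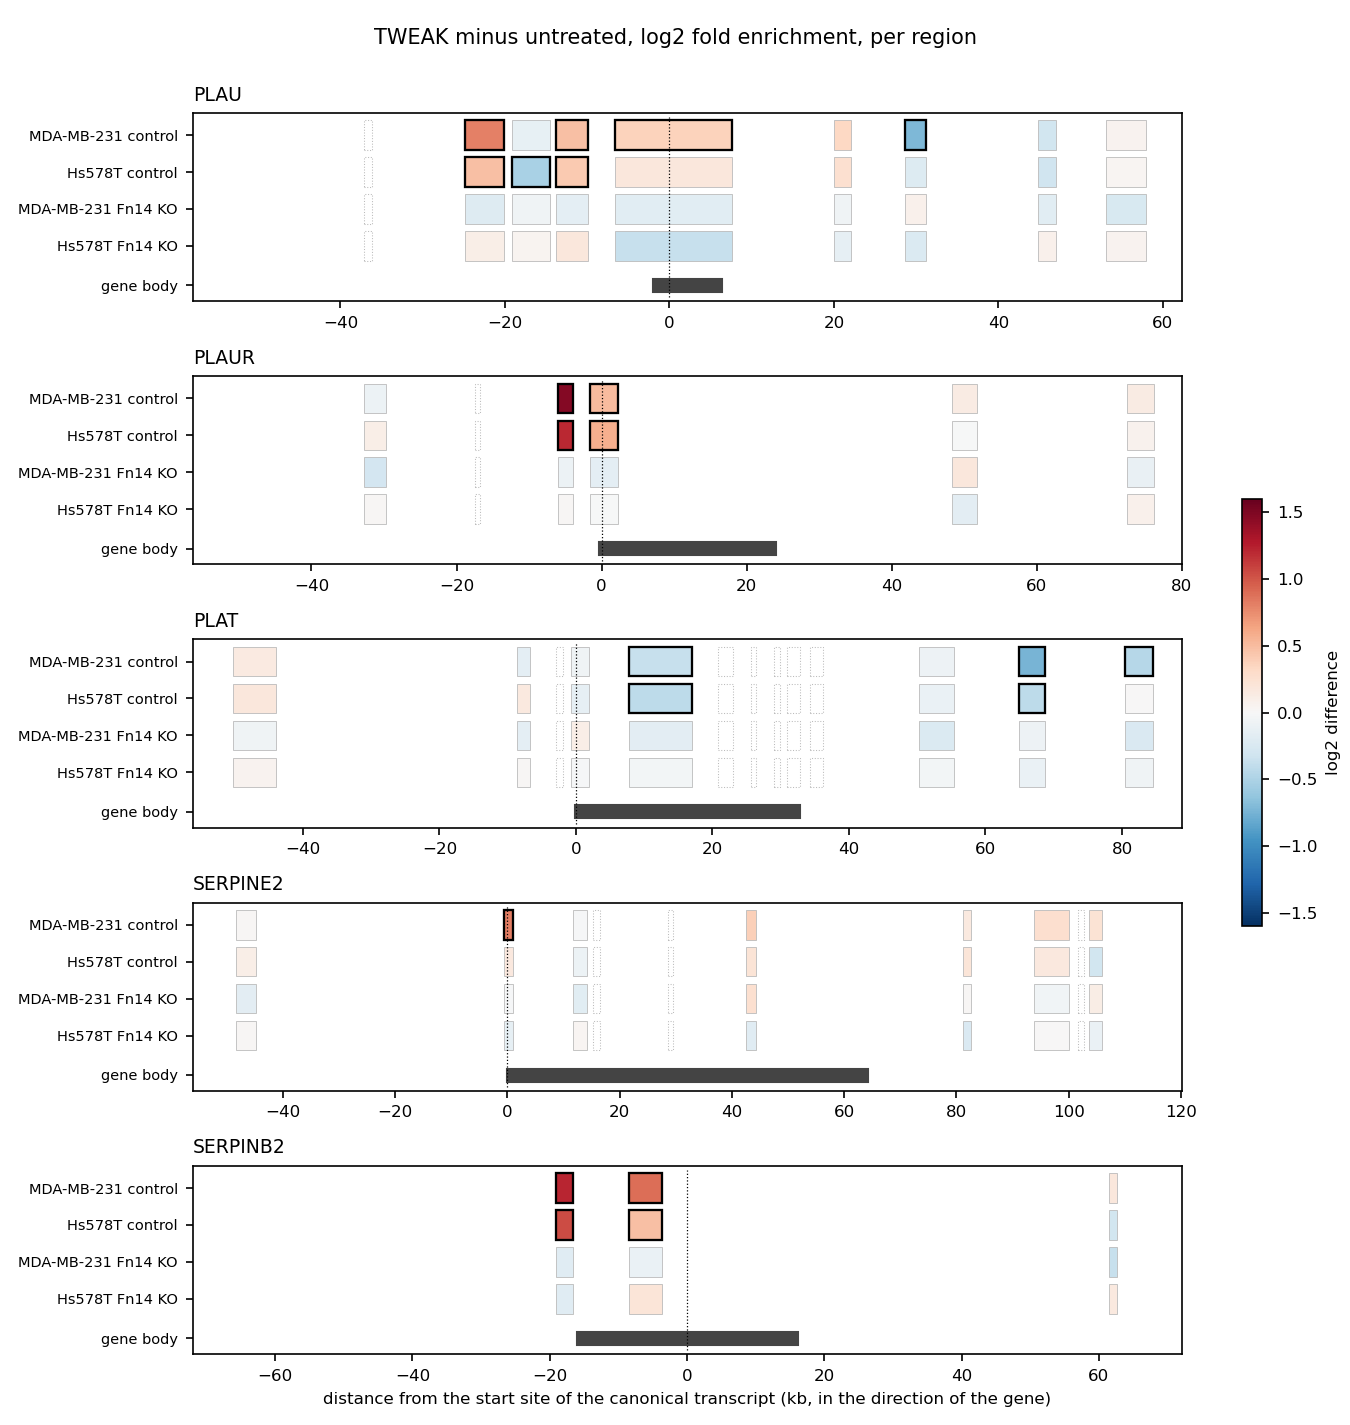
Every region within 50 kb of the 5 genes by its distance in kb from the start site (x axis, in the direction of the gene), coloured by the log2 difference in fold enrichment between TWEAK and untreated lists in each of the 4 line and genotype pairs. Thick outlines mark regions that passed the test and dotted ones could not be tested. Outlined regions occur in the rows of control cells and in 0 rows of Fn14 KO cells.

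PLAUR showed the largest difference of the 30 regions. The region 5.0 kb upstream of its start (chr19:43674068-43676237, between protein-coding genes) lies outside the gene (chr19:43646095-43670547, minus strand, ENSG00000011422.12). The fold enrichment of this region in MDA-MB-231 control cells was 7.30 and 7.95 untreated and 20.01 and 22.1 with TWEAK, and in Hs578T control cells 7.87 and 7.18 untreated and 16.8 and 17.99 with TWEAK. It was 8.55 and 7.71 untreated and 7.64 and 7.52 with TWEAK in the MDA-MB-231 KO cells, and 7.20 and 7.32 untreated and 7.45 and 7.29 with TWEAK in the Hs578T KO cells. The 4 TWEAK lists of control cells were thus above the other 12 lists, which lay within 7.18 to 8.55. The log2 difference was 1.47 (SE 0.15, adjusted p = 4.57e-13, 2.76-fold) in MDA-MB-231 and 1.21 (SE 0.15, adjusted p = 6.76e-10, 2.31-fold) in Hs578T. In the KO cells it was −0.10 (SE 0.15, adjusted p = 0.963) and 0.02 (SE 0.15, adjusted p = 1). The effect in control cells exceeded that in KO cells by 1.56 (SE 0.21, adjusted p = 1.9e-08) in MDA-MB-231 and by 1.19 (SE 0.21, adjusted p = 2.68e-05) in Hs578T. All of these calls held in each of the 16 fits that left out 1 list. In these and all later fits of this kind, leaving out a list of a group not compared changes only the pooled error. The difference itself then stays the same, so such fits test a call less.

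The region over the PLAUR start site (chr19:43667846-43671712, covering the first exon) rose as well, by less. Its fold enrichment was 14.5 and 15.4 untreated and 21.2 and 21.2 with TWEAK in the MDA-MB-231 control, and 9.63 and 10.7 untreated and 14.7 and 15.7 with TWEAK in Hs578T control cells. The KO lists of both lines and treatments lay between 8.86 and 11.8. Within each line, the TWEAK lists of control cells did not overlap any other list. On the log2 scale the difference was 0.51 (SE 0.14, adjusted p = 0.00311) in MDA-MB-231 and 0.58 (SE 0.14, adjusted p = 8.52e-04) in Hs578T, and it exceeded that in KO cells by 0.66 (SE 0.20, adjusted p = 0.0107) and 0.59 (SE 0.20, adjusted p = 0.0384). The first 3 of these 4 calls held in all 16 fits without 1 list. The last was lost in 8 of them, with values of 0.46 to 0.64 and adjusted p of 0.0549 to 0.239, namely without Hs578T control or Fn14 KO untreated replicate 1 or without any TWEAK list of Hs578T or of MDA-MB-231 control cells, and also when fold enrichment was divided by the median of all peaks of its list (0.51, adjusted p = 0.0734). The remaining 3 tested PLAUR regions, over the neighbouring genes ZNF428 and IRGQ or farther upstream, did not pass the test with TWEAK in control cells of either line.

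At PLAU (chr10:73909177-73917496, plus strand, ENSG00000122861.16), acetylation rose at a pair of upstream regions in both lines and fell at others. The region 22.5 kb upstream (chr10:73886292-73890966, between protein-coding genes) had a fold enrichment of 15.7 and 19.8 untreated and 30.1 and 31.5 with TWEAK in the MDA-MB-231 control. In Hs578T control cells the values were 17.6 and 15.4 untreated and 22.0 and 23.7 with TWEAK. Among the KO cells, MDA-MB-231 gave 12.5 and 10.2 untreated and 9.54 and 10.0 with TWEAK, and Hs578T gave 20.3 and 17.0 untreated and 20.5 and 19.4 with TWEAK. Thus the TWEAK lists of control cells were the highest of their line, and the KO lists of the 2 lines differed from each other at this region whatever the treatment. The log2 difference with TWEAK was 0.81 (SE 0.14, adjusted p = 1.84e-06) in MDA-MB-231 and 0.47 (SE 0.14, adjusted p = 0.00586) in Hs578T. It exceeded that in KO cells by 1.01 (SE 0.19, adjusted p = 4.89e-05) in MDA-MB-231, and the same difference in Hs578T, 0.38 (SE 0.19, adjusted p = 0.226), did not pass the test. The Hs578T call was lost without control untreated replicate 2 (0.38, adjusted p = 0.114) or control TWEAK replicate 2 (0.42, adjusted p = 0.0744).

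The second such region, 11.9 kb upstream (chr10:73897283-73901250), had 20.8 and 20.8 untreated and 25.5 and 32.9 with TWEAK in the MDA-MB-231 control and 15.6 and 17.0 untreated and 20.3 and 23.5 with TWEAK in Hs578T control cells. MDA-MB-231 KO lists gave 10.5 to 14.6 and Hs578T KO lists 15.2 to 20.6. The groups with and without TWEAK did not overlap in control cells of either line, but 1 Hs578T KO list with TWEAK (20.6) exceeded the lower control TWEAK list. The log2 difference was 0.48 (SE 0.14, adjusted p = 0.00606) in MDA-MB-231 and 0.42 (SE 0.14, adjusted p = 0.0186) in Hs578T. Without MDA-MB-231 control TWEAK replicate 2 the first fell to 0.29 (adjusted p = 0.263), and without Hs578T control TWEAK replicate 2 or untreated replicate 1 the second fell to 0.32 (adjusted p = 0.217) or 0.36 (adjusted p = 0.144). The difference from KO cells passed in MDA-MB-231 (0.63, SE 0.20, adjusted p = 0.0171) but not after rescaling (0.48, adjusted p = 0.0571), nor without control untreated replicate 1, control TWEAK replicate 2, KO untreated replicate 1 or KO TWEAK replicate 2 of that line (0.44 to 0.63, adjusted p of 0.0551 to 0.206).

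The wide region over the whole of PLAU (chr10:73904552-73918690, 14139 bp) had the highest fold enrichment of the 4 start regions. It was 28.2 and 22.7 untreated and 33.5 and 32.0 with TWEAK in the MDA-MB-231 control, 17.97 and 14.3 and then 15.1 and 13.3 in the KO cells of that line, 23.4 and 19.1 and then 22.6 and 25.4 in Hs578T control cells, and 27.1 and 26.1 and then 19.6 and 21.5 in Hs578T KO cells. In Hs578T the control groups overlapped. The log2 difference in MDA-MB-231 was 0.37 (SE 0.13, adjusted p = 0.0253), and after rescaling it was 0.29 (adjusted p = 0.0676). Without control untreated replicate 2 it was 0.21 (adjusted p = 0.356), and the call was also lost without either TWEAK list (adjusted p = 0.149 and 0.0803). In Hs578T it was 0.18 (SE 0.13, adjusted p = 0.356). The TWEAK effect exceeded that in KO cells by 0.55 in each line (adjusted p = 0.0282 and 0.0441), and neither call held after rescaling (adjusted p = 0.0991 and 0.0567). They held in 11 and 7 of 16 fits without 1 list, with values of 0.39 to 0.72 and 0.41 to 0.70. With the mean fold enrichment weighted by shared bases in place of the highest, the Hs578T value was 0.22 (adjusted p = 0.508). Beyond the gene, the region 29.9 kb downstream (chr10:73939742-73942310) fell in MDA-MB-231 control cells, from 9.82 and 9.72 to 7.04 and 4.97. The log2 difference was −0.72 (SE 0.17, adjusted p = 3.99e-04), or −0.47 (adjusted p = 0.0995) without control TWEAK replicate 2. It differed from that in KO cells by −0.80 (SE 0.24, adjusted p = 0.0101), a call lost without control TWEAK replicate 2 (−0.55, adjusted p = 0.183) or KO TWEAK replicate 2 (−0.71, adjusted p = 0.0631). The region 16.8 kb upstream (chr10:73892019-73896591), between the 2 regions that rose, fell in Hs578T control cells from 7.29 and 5.97 to 4.22 and 5.07 (−0.51, SE 0.17, adjusted p = 0.0192), a call that was lost without control untreated replicate 1 (−0.37, adjusted p = 0.237) or control TWEAK replicate 1 (−0.38, adjusted p = 0.237). The region with the highest fold enrichment around PLAU, 55.5 kb downstream, reached 35.4 and was not called with TWEAK in either line.

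SERPINB2 (chr18:63871692-63903888, plus strand, ENSG00000197632.9) had no peak within 2 kb of its canonical start in any list. Of its 3 acetylated regions, 2 lay upstream of that start. The region 17.9 kb upstream (chr18:63868592-63871056, between protein-coding genes) ends just before the first base of the gene record. It thus lies within 2 kb of the 5′ end of that record, where a longer SERPINB2 transcript starts. Its fold enrichment rose from 7.13 and 8.57 to 17.0 and 19.3 in MDA-MB-231 control cells and from 7.78 and 6.60 to 14.8 and 14.8 in Hs578T control cells. MDA-MB-231 KO cells gave 9.15 and 10.0 untreated and 8.53 and 8.22 with TWEAK, and Hs578T KO cells gave 3.74 and 4.90 untreated and 3.29 and 4.27 with TWEAK. The 4 TWEAK lists of control cells were above all others, and the 4 Hs578T KO lists were below all others. The log2 difference with TWEAK was 1.21 (SE 0.16, adjusted p = 6.02e-09, 2.32-fold) in MDA-MB-231 and 1.05 (SE 0.16, adjusted p = 4.36e-07, 2.07-fold) in Hs578T. It was −0.19 in the KO cells of both lines (SE 0.16, adjusted p = 0.945 and 1), and the effect in control cells exceeded it by 1.41 (SE 0.23, adjusted p = 2.61e-06) and 1.24 (SE 0.23, adjusted p = 6.79e-05). These 4 calls held in all 16 fits without 1 list.

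The region 6.1 kb upstream (chr18:63879259-63884043) lies in an intron of a longer SERPINB2 transcript. Its values were 7.30 and 7.25 untreated and 13.3 and 13.7 with TWEAK in the MDA-MB-231 control, and 8.06 and 7.07 untreated and 10.5 and 10.6 with TWEAK in Hs578T control cells. The KO lists lay between 6.54 and 7.92 (MDA-MB-231) or between 4.95 and 7.25 (Hs578T). Again the TWEAK lists of control cells were highest in each line. The rise was 0.89 on the log2 scale (SE 0.16, adjusted p = 7.75e-06) and 0.48 (SE 0.16, adjusted p = 0.0189), and the second was lost without any 1 of 3 Hs578T control lists (0.39, adjusted p = 0.173, without untreated replicate 2, and adjusted p = 0.0893 and 0.0876 without TWEAK replicates 1 and 2) and with the weighted mean (0.32, adjusted p = 0.14). The effect exceeded that in KO cells by 1.00 (SE 0.23, adjusted p = 6.99e-04) in MDA-MB-231, while in Hs578T the difference of 0.28 (SE 0.23, adjusted p = 0.498) did not pass the test. The only other SERPINB2 region, 62.1 kb downstream over HMSD, was not called with TWEAK.

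**Figure D2:**
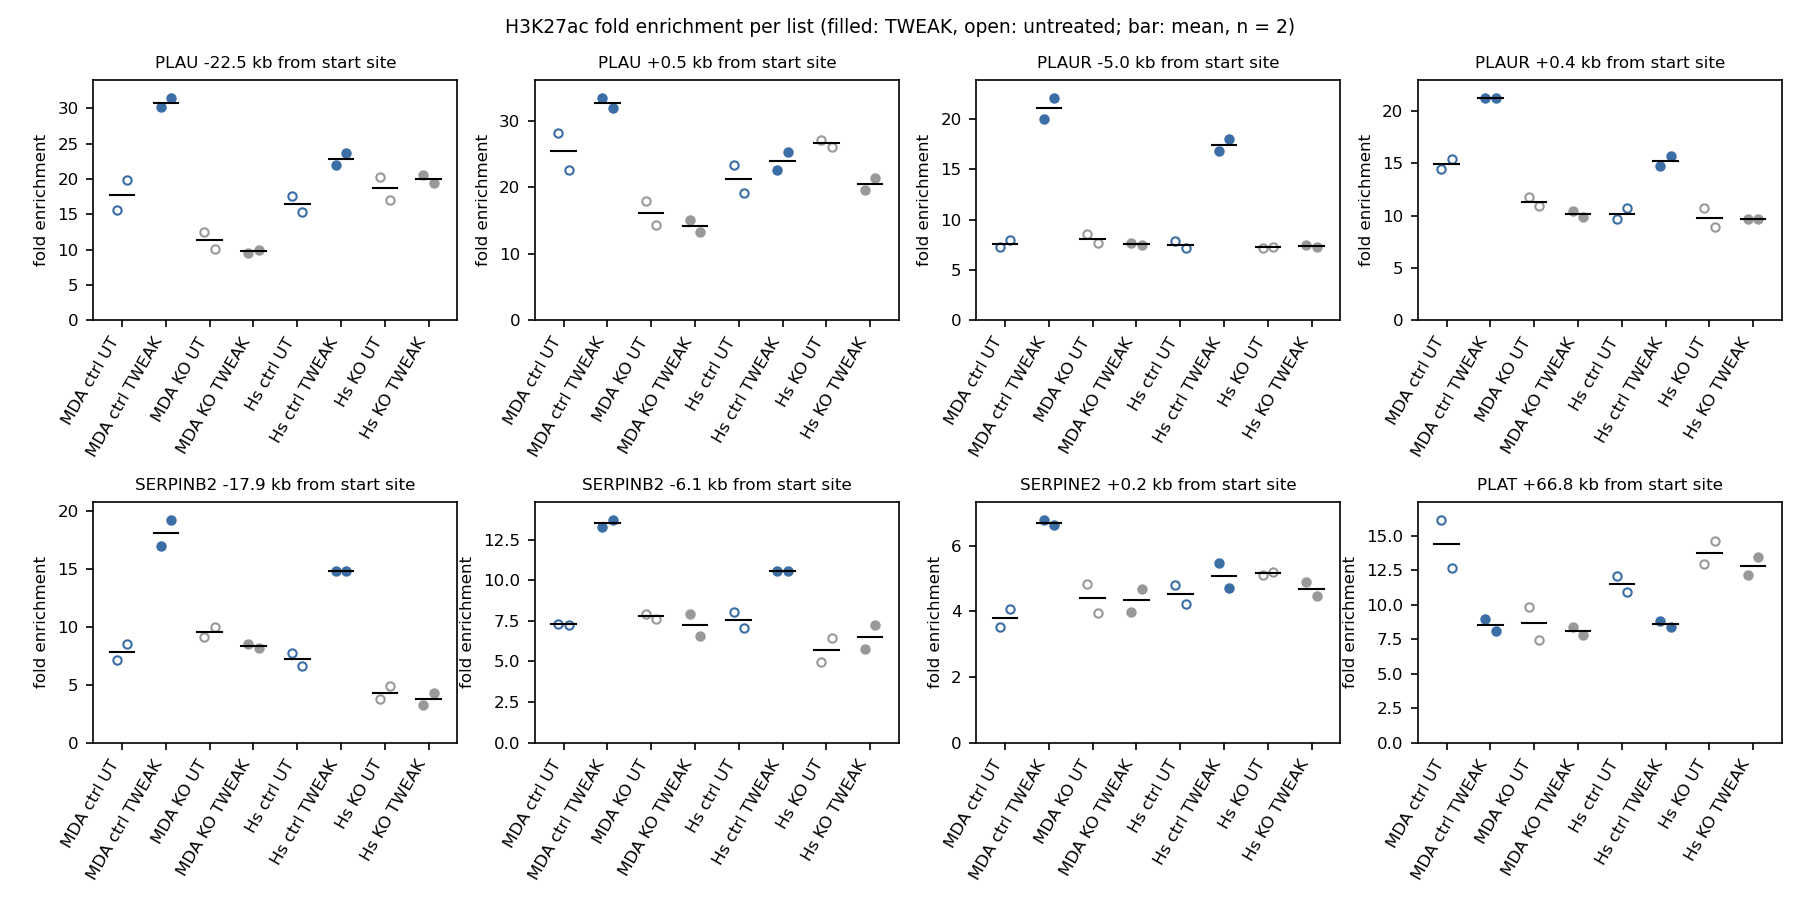
Fold enrichment (y axis, from 0) of 8 regions in each of the 16 lists. MDA is MDA-MB-231, Hs is Hs578T, ctrl is control, KO is Fn14 KO and UT is untreated. Blue is control and grey Fn14 KO, open points are untreated lists, filled points TWEAK lists, and bars the mean of 2. At PLAUR 5.0 kb upstream the 4 filled points of control cells sit between 16.8 and 22.1 and the other 12 between 7.18 and 8.55.

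SERPINE2 (chr2:223975045-224039318, minus strand, ENSG00000135919.14) changed at its start region in MDA-MB-231. The region over the start site (chr2:224038287-224039921, covering the first exon) had a fold enrichment of 3.52 and 4.08 untreated and 6.78 and 6.62 with TWEAK in the MDA-MB-231 control, and of 4.83 and 3.96 and then 3.99 and 4.69 in the KO cells. In Hs578T the control values were 4.81 and 4.22 untreated and 5.45 and 4.70 with TWEAK, and the KO values 5.12 and 5.18 and then 4.89 and 4.47. The 2 MDA-MB-231 control TWEAK lists stood above the other 14 lists, and in Hs578T the groups overlapped. The log2 difference was 0.82 (SE 0.17, adjusted p = 8.06e-05) in MDA-MB-231 and 0.17 (SE 0.17, adjusted p = 0.517) in Hs578T. The test of the difference between the lines (0.65, SE 0.24, adjusted p = 0.811) did not pass, so the effect is not shown to differ between them. Over all regions that test called 0.00706%, with 827 higher and 505 lower at an unadjusted p under 0.05. The MDA-MB-231 effect exceeded that in KO cells by 0.84 (SE 0.24, adjusted p = 0.00803), a call lost without control untreated replicate 1 (0.73, adjusted p = 0.0525), KO untreated replicate 1 (0.70, adjusted p = 0.0587) or KO TWEAK replicate 1 (0.72, adjusted p = 0.0549). The other 6 tested regions of SERPINE2 did not pass the test with TWEAK in control cells.

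In contrast, PLAT (chr8:42174718-42207709, minus strand, ENSG00000104368.19) had 0 regions that rose with TWEAK and 3 that fell. The region 66.8 kb downstream of its start (chr8:42138866-42142618) lies outside protein-coding genes, with the noncoding genes ENSG00000271938 and ENSG00000289603 recorded for it. Its fold enrichment fell in MDA-MB-231 control cells from 16.2 and 12.7 to 8.98 and 8.10, and in Hs578T control cells from 12.1 and 10.95 to 8.82 and 8.41. KO values were 9.87 and 7.47 untreated and 8.41 and 7.83 with TWEAK in MDA-MB-231, and 12.9 and 14.6 and then 12.2 and 13.5 in Hs578T. The control groups did not overlap in either line. The MDA-MB-231 KO lists were all within the range of 7.47 to 9.87, below the untreated control lists, while the Hs578T KO lists were above the untreated control lists. The log2 difference with TWEAK was −0.75 (SE 0.15, adjusted p = 5.69e-05) and −0.42 (SE 0.15, adjusted p = 0.0325), and the Hs578T call was lost without any 1 of the 4 Hs578T control lists (between −0.35 and −0.49, adjusted p of 0.0546 to 0.206). The effect differed from that in KO cells by −0.66 (SE 0.21, adjusted p = 0.0194) in MDA-MB-231, a call lost without control untreated replicate 1, control TWEAK replicate 2, KO untreated replicate 2 or KO TWEAK replicate 1 (−0.46 to −0.61, adjusted p of 0.0661 to 0.173).

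The wide intragenic region of PLAT, 12.4 kb downstream of the start (chr8:42190558-42199802, over exons and introns), went from 12.8 and 14.3 to 10.3 and 10.6 in MDA-MB-231 control cells and from 10.7 and 11.5 to 7.80 and 8.74 in Hs578T control cells. All 4 Hs578T KO lists, at 12.3 to 13.8, were above the Hs578T control lists. The log2 difference was −0.37 (SE 0.15, adjusted p = 0.0492) and −0.42 (SE 0.15, adjusted p = 0.0272). The MDA-MB-231 call is close to the threshold and held in 4 of 16 fits without 1 list and neither with the weighted mean (−0.34, adjusted p = 0.0674) nor with MDA-MB-231 fitted alone (adjusted p = 0.09), and the Hs578T call in 13, being lost without control untreated replicate 1 or 2 or TWEAK replicate 1 (−0.34 to −0.47). The region 82.5 kb downstream (chr8:42123007-42127169) fell in MDA-MB-231 control cells from 9.37 and 11.3 to 7.96 and 7.01 (−0.46, SE 0.17, adjusted p = 0.0333), a call lost without control untreated replicate 2 (−0.33, adjusted p = 0.257) or TWEAK replicate 2 (−0.37, adjusted p = 0.241). In Hs578T the difference was 0.01 (SE 0.17, adjusted p = 0.975). The region over the PLAT start site had low fold enrichment throughout, 2.95 to 5.82, and the difference with TWEAK of −0.07 (SE 0.17, adjusted p = 0.802) in MDA-MB-231 and −0.14 (SE 0.17, adjusted p = 0.604) in Hs578T did not pass the test.

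**Figure D3:**
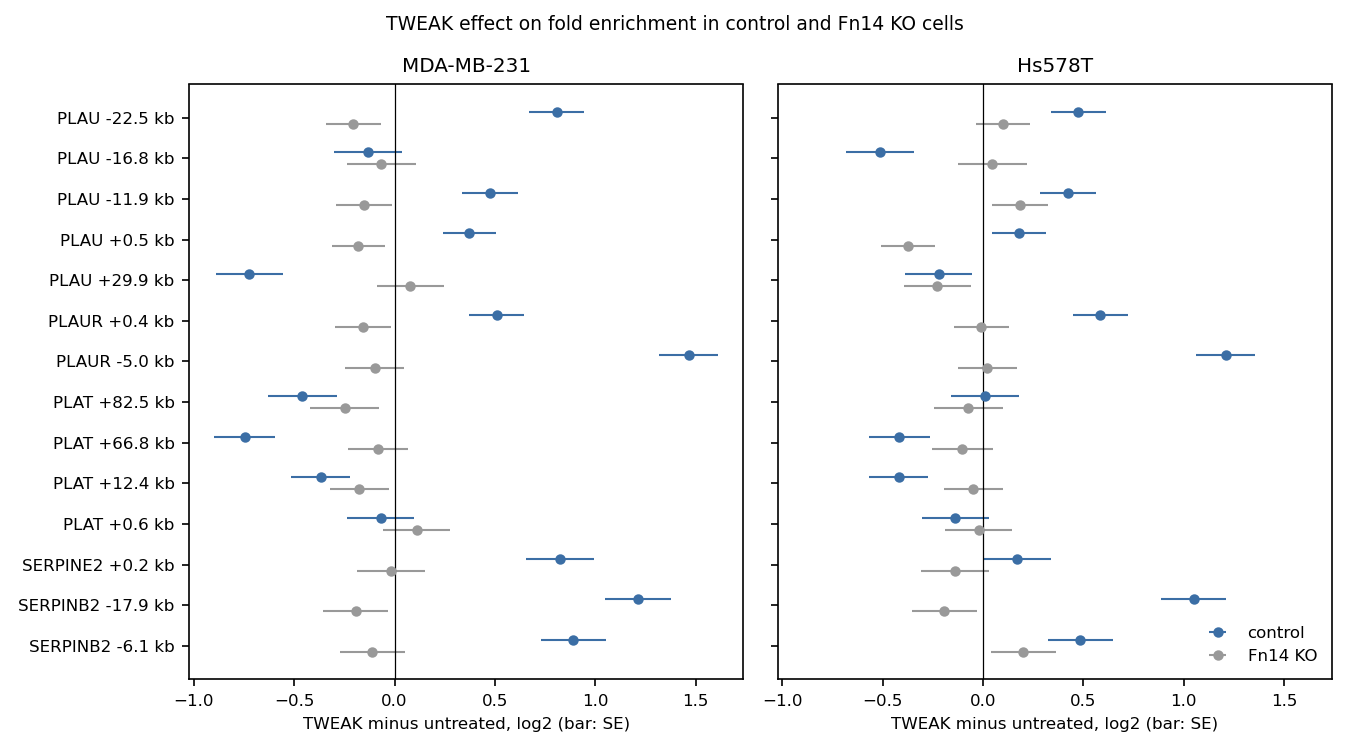
Log2 difference in fold enrichment between TWEAK and untreated lists (x axis, points, with bars of 1 SE) for 14 named regions with a peak in all lists, in control (blue) and Fn14 KO (grey) cells of each line. The control effects range from −0.75 at PLAT 66.8 kb downstream to 1.47 at PLAUR 5.0 kb upstream, and 0 of the grey points passed the test.

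Presence or absence of a peak changed at few of the 41 regions. A region was called gained when both TWEAK lists and neither untreated list had a peak, and lost in the reverse case. In MDA-MB-231 control cells 1 region was gained and 2 were lost, against 5.58% gained and 4.49% lost of all 55219 regions. The gained region lay in an intron of SERPINE2, 15.9 kb from its start (chr2:224022703-224023974), with 4.95 and 4.08 in the TWEAK lists. This region was already acetylated in untreated Hs578T control cells (4.31 and 2.94), so it was no gain there. The lost regions lay 17.1 kb upstream of PLAUR (3.72 and 3.04 untreated) and 102.2 kb from the SERPINE2 start, inside WDFY1 (3.497 and 2.71 untreated). In the MDA-MB-231 control lists the values of all 3 were at most 4.95. Of the 5 genes, 1 had a gained region in its window, against 18.1% of all protein-coding genes, and 2 had a lost one, against 16.5%. Hs578T control cells gained and lost 0 of the 41 regions, against 5.09% and 4.65% of all regions, and 0 of the 5 genes were affected, against 16.3% and 17.4% of genes. In KO cells 0 regions were gained with TWEAK and 2, both around PLAT, were lost in MDA-MB-231, against 1.67% gained or lost over all regions in MDA-MB-231 KO and 1.88% in Hs578T KO cells, where 0 of the 41 changed.

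The highest fold enrichment within 2 kb of each canonical start site was tested over the 10909 genes with such a peak in all lists. Of the 5 genes 4 could be tested, as SERPINB2 had no peak within 2 kb of its canonical start. This repeats the start-region values on another set of features and is not independent of them. PLAU ranked high, at or above 96.5% of these genes by mean promoter level, and PLAUR at 71.6%, whereas SERPINE2 at 7.95% and PLAT at 2.13% ranked low. TWEAK raised the promoter value of PLAUR (0.51, SE 0.13, adjusted p = 0.00786) and SERPINE2 (0.82, SE 0.16, adjusted p = 7.66e-04) in MDA-MB-231, which is 2 of 4 against 6.89% of all genes tested. In Hs578T it raised PLAUR alone (0.58, SE 0.13, adjusted p = 0.00373), against 4.43% of genes. Without 1 list the SERPINE2 call held in 16 of 16 fits, the PLAUR call in 13 (MDA-MB-231, lost without control untreated replicate 1 or either TWEAK list) and in 14 (Hs578T, lost without control untreated replicate 1 or TWEAK replicate 2). All of these losses came from leaving out a list of the groups compared, and only such fits can change the difference itself. Rescaling moved the share of higher calls over all genes from 64.8% to 40.0% and from 66.1% to 49.6%. The PLAU difference in MDA-MB-231 (0.37, SE 0.13) had an adjusted p of 0.0686 here and did not pass. The effect differed from that in KO cells for PLAUR and SERPINE2 in MDA-MB-231 (adjusted p = 0.0284 and 0.029, each held in 11 of 16 fits without 1 list, and lost for PLAUR with the line fitted alone, adjusted p = 0.0682, and for SERPINE2 with division by the list median, adjusted p = 0.052), against 3.40% of genes higher, and for 0 of the 4 in Hs578T, against 0.715%, where 904 genes were higher and 436 lower at an unadjusted p under 0.05. PLAUR in Hs578T had a difference of 0.59 (SE 0.18, adjusted p = 0.108).

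The length of sequence under peaks in the gene body and 50 kb on each side gave a different picture, since it counts how much is called and not how high. PLAU had 21.6 to 34.2 kb, more than or as much as 96.4% of 17915 genes. PLAT had 20.1 to 31.1 kb (94.9%), SERPINE2 13.6 to 18.02 kb (83.2%), PLAUR 8.89 to 12.8 kb (68.2%) and SERPINB2 3.15 to 7.17 kb (36.7%). These windows also hold other protein-coding genes, 6 for PLAUR, 3 each for SERPINE2 and SERPINB2 and 1 each for PLAU and PLAT, and lengths are not corrected for gene size. SERPINB2 rose in Hs578T control cells from 4.75 and 3.99 kb to 6.50 and 7.17 kb, with no overlap, and in MDA-MB-231 control cells from 4.16 and 4.66 kb to 5.31 and 5.83 kb, also with no overlap. On the log2(bp + 1000) scale, which understates the change of short lengths, the Hs578T difference was 0.55 (SE 0.12, adjusted p = 0.0199), 1 of 5 genes against 5.44% of all genes called in either direction. It was lost without control untreated replicate 2 (0.45, adjusted p = 0.171) or either TWEAK list, and with peaks of a −log10 q of at least 5 (0.33, adjusted p = 0.48). In MDA-MB-231 the SERPINB2 difference was 0.28 (SE 0.12, adjusted p = 0.201), and 0 of the 5 genes were called, against 7.09%, with 1691 genes higher and 2017 lower at an unadjusted p under 0.05.

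No difference in length with TWEAK passed the test for PLAU or PLAT. PLAU covered 27.8 and 30.6 kb untreated and 26.8 and 26.3 kb with TWEAK in the MDA-MB-231 control, and 30.5 and 31.6 kb and then 24.6 and 27.7 kb in Hs578T control cells. The differences for PLAU were −0.13 (adjusted p = 0.472) and −0.24 (adjusted p = 0.142), with an SE of 0.09 in both, and those for PLAT were −0.13 (adjusted p = 0.558) and −0.20 (adjusted p = 0.317), with an SE of 0.11 in both. In an exact permutation test over the 8 control lists with labels exchanged within each line (36 arrangements, two-sided, smallest possible p of 0.0556, so that none could pass 0.05), the mean log2 difference was 0.41 for SERPINB2 (p = 0.0556), −0.19 for PLAU (p = 0.0556), −0.17 for PLAT (p = 0.0556), 0.19 for SERPINE2 (p = 0.111) and −0.07 for PLAUR (p = 0.333). By limma the same mean difference of both lines was called for 1 of the 5 genes, SERPINB2 (adjusted p = 0.00471). Over all 17915 genes that test called 1226 higher and 1980 lower. The SERPINB2 call was lost with peaks of a −log10 q of at least 5 (0.28, adjusted p = 0.262). The TWEAK effect on length differed from that in KO cells for 0 of the 5 genes in MDA-MB-231, against 1.50%, and for 0 in Hs578T, against 0.675% (1373 genes higher and 867 lower, and 640 and 1420, at an unadjusted p under 0.05).

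**Figure D4:**
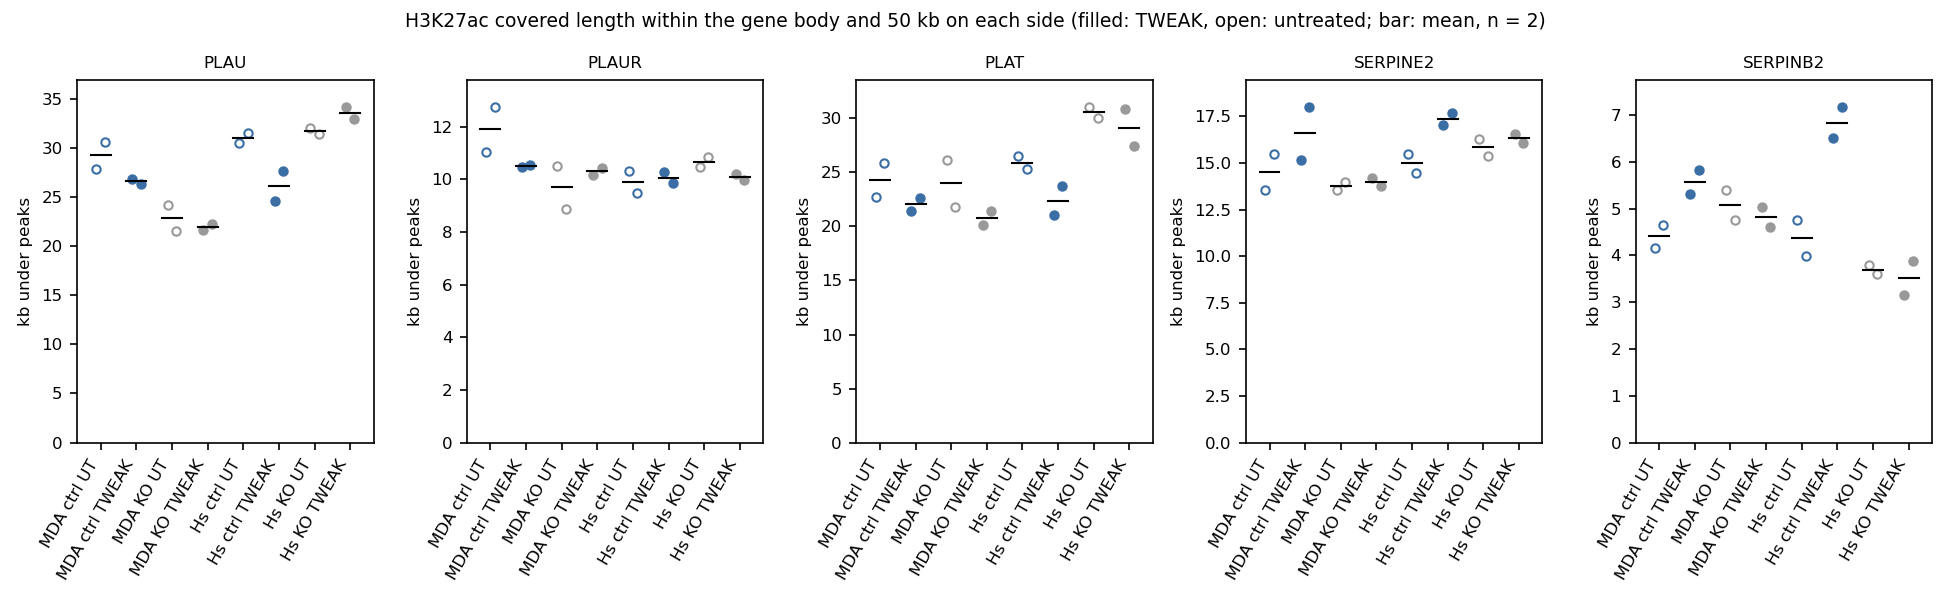
Kilobases under H3K27ac peaks (y axis, from 0) within each gene body and 50 kb on each side, by list. Open points are untreated and filled points TWEAK lists, blue is control and grey Fn14 KO, bars are means of 2, and group names are shortened as in the plot of fold enrichment by list. In Hs578T control cells SERPINB2 goes from 3.99 and 4.75 kb untreated to 6.50 and 7.17 kb with TWEAK.

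Fn14 KO cells were also compared directly with control cells, which shares lists with the comparisons above. In untreated MDA-MB-231 cells, 14 of the 30 regions were lower and 0 higher in the KO, against 29.8% and 2.72% of all regions, and with TWEAK 21 were lower and 0 higher, against 49.1% and 3.11%. Over all regions the median log2 difference was −0.22 untreated and −0.35 with TWEAK, and the median fold enrichment of the MDA-MB-231 KO lists was the lowest of the series, as given above. Over all regions rescaling moved the share of higher calls from 8.36% to 42.7% untreated and from 5.95% to 47.1% with TWEAK. After rescaling 3835 of all 28337 regions were lower and 2855 higher untreated, and 5703 and 5087 with TWEAK. Of the members' 30 regions 9 were then lower and 4 higher untreated, and 12 were lower and 2 higher with TWEAK. The largest was PLAU 22.5 kb upstream, where the TWEAK lists differed by −1.66 (SE 0.14, adjusted p = 1.18e-16), and by −1.30 (adjusted p = 1.46e-09) after rescaling. At this region the untreated lists already differed by −0.64 (SE 0.14, adjusted p = 1.81e-04), and by −0.43 (adjusted p = 0.00339) after rescaling. The PLAU start region was likewise lower untreated by −0.66 (SE 0.13, adjusted p = 1.01e-04), and by −0.45 (adjusted p = 0.00988) after rescaling. At PLAUR 5.0 kb upstream the TWEAK lists differed by −1.47 (SE 0.15, adjusted p = 2.48e-13) and at SERPINB2 17.9 kb upstream by −1.11 (SE 0.16, adjusted p = 3.17e-08). Neither was called in the untreated lists, where after rescaling both were higher in the KO, by 0.30 (adjusted p = 0.0422) and 0.50 (adjusted p = 0.0181).

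In Hs578T, 0 regions were higher and 1 was lower in untreated KO cells, against 0.374% and 0.716% of all regions. This was SERPINB2 17.9 kb upstream, with 3.74 and 4.90 in the KO and 7.78 and 6.60 in control cells (−0.74, SE 0.16, adjusted p = 0.00597), and the call was lost without Hs578T control untreated replicate 1 or Fn14 KO untreated replicate 1. With TWEAK it differed by −1.99 (SE 0.16, adjusted p = 1.04e-16, 3.96-fold), the largest genotype difference among the 30 regions. In all, 4 regions were higher and 5 lower in the KO with TWEAK, against 14.1% and 18.7%. After rescaling 4 were higher and 6 lower, against 5271 and 5613 of all 28337 regions. The added one lay 7.7 kb upstream of PLAT (−0.34, adjusted p = 0.045, against −0.37, adjusted p = 0.0807, before rescaling). Before rescaling the 5 lower ones lay at PLAUR (2), SERPINB2 (2) and SERPINE2 (1), and the 4 higher ones at PLAU (2) and PLAT (2). PLAT 12.4 kb from its start was higher by 0.61 (SE 0.15, adjusted p = 5.94e-04) and PLAT 66.8 kb from its start by 0.57 (SE 0.15, adjusted p = 0.00177). Covered length with TWEAK was higher in the KO for PLAT (0.37, SE 0.11, adjusted p = 0.0396) and PLAU (0.35, SE 0.09, adjusted p = 0.0211) and lower for SERPINB2 (−0.80, SE 0.12, adjusted p = 0.0012), 3 of 5 genes against 13.9% of all genes. The PLAT call held in 4 of 16 fits without 1 list and was lost with peaks of a −log10 q of at least 5 (0.13, adjusted p = 0.42) and with the gene body extended by 100 kb (0.28, adjusted p = 0.0789). The PLAU call was lost with the same filter on q (0.39, adjusted p = 0.0576) and without Hs578T control TWEAK replicate 1 (0.27, adjusted p = 0.209) or either Hs578T KO TWEAK list.

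Untreated control cells of the 2 lines were also compared. Of the 30 regions, 8 were higher in MDA-MB-231 and 0 lower, against 18.6% and 10.0% of all regions. After rescaling 7 were higher and 0 lower, against 5310 and 4431 of all 28337 regions. Rescaling moved the share of higher calls over all regions from 64.9% to 54.5%. Of the 8, 4 lay at PLAT, 3 at PLAUR and 1 at PLAU. The PLAT start region was higher by 0.61 (SE 0.17, adjusted p = 0.00382), with 5.01 and 5.82 in MDA-MB-231 and 3.75 and 3.34 in Hs578T. The PLAUR start region was higher by 0.56 (SE 0.14, adjusted p = 0.00158). At the 3 SERPINB2 and 7 SERPINE2 regions tested 0 differences passed. The TWEAK effect differed between the lines at 0 of the 30 regions, with differences between −0.50 at PLAU 29.9 kb downstream (SE 0.24) and 0.65 at the SERPINE2 start, each with an adjusted p of at least 0.811, so that effects of the 2 lines were not told apart at this number of lists.

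Of 19 other genes of plasminogen activation and fibrinolysis, 17 could be tested for covered length and 11 for promoter value. With TWEAK in control cells 2 promoters of 11 rose in each line, PLGRKT and THBD, and 0 fell. The shares over all genes that rose are as given above, and 409 of 10909 fell in MDA-MB-231 and 248 in Hs578T. Over the 11 promoters the median log2 difference was 0.15 in MDA-MB-231 and −0.01 in Hs578T, against 0.04 and 0.05 over all genes, and over the 17 lengths it was −0.08 and −0.09, against −0.02 and −0.07. PLGRKT encodes a plasminogen receptor of the cell surface, and its promoter value went from 13.3 and 12.9 to 23.0 and 21.8 in MDA-MB-231 (0.77, SE 0.14, adjusted p = 2.39e-04) and from 12.8 and 12.2 to 19.4 and 20.7 in Hs578T (0.68, SE 0.14, adjusted p = 0.00175). Its 8 KO lists lay between 9.27 and 13.6, and the effect exceeded that in KO cells in both lines (adjusted p = 0.00326 and 0.045). THBD encodes thrombomodulin, a cofactor of thrombin, and its promoter rose by 0.40 (SE 0.11, adjusted p = 0.0183) and 0.43 (SE 0.11, adjusted p = 0.0152). In KO cells it went from 26.4 and 23.7 to 20.7 and 19.0 in MDA-MB-231, and from 20.3 and 20.8 to 19.3 and 18.2 in Hs578T. The effect exceeded that in KO cells for 3 of the 11 promoters in MDA-MB-231 and for 1, PLGRKT, in Hs578T, so not for THBD in Hs578T. Covered length fell in MDA-MB-231 for F12, the gene of coagulation factor XII (−0.54, SE 0.14, adjusted p = 0.0324). F12 had a promoter peak in 0 lists, so this length lies elsewhere in its window. Length also fell for MRC2, which encodes a collagen receptor that binds the uPA and uPAR complex (−0.68, SE 0.12, adjusted p = 0.00478). This makes 2 of 17 against 7.09% of all genes in either direction, and 0 of 17 in Hs578T, against 5.44%. The TWEAK effect on length differed from that in KO cells for 0 of the 17 in MDA-MB-231, against 1.50%, and for 0 in Hs578T, against 0.675%. PLG, the plasminogen gene itself, had no peak in its window in any list.

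Of the 9 clade B serpins neighbouring SERPINB2, 4 could be tested for length, and SERPINB10 rose in Hs578T control cells, from 7.08 and 6.51 kb to 9.13 and 9.44 kb (0.40, SE 0.11, adjusted p = 0.0491). Its window overlaps that of SERPINB2, so that the same peaks enter both. A further 5 of the 9 had no covered base in any list. As a description with no test, the genes whose log2 covered length was most like that of a member over the 16 lists, at least 1 Mb away, were PLEKHA1 (Pearson r 0.972), TENM3 (0.968) and SF3B2 (0.966) for PLAU, HPRT1 (0.889), GLO1 (0.862) and EMC2 (0.851) for PLAUR, CZIB (0.973), TMCC1 (0.955) and POMZP3 (0.955) for PLAT, SLC35B1, ASPHD1 and TRIM60 (0.926 each) for SERPINE2 and NPAS3 (0.918), PLA2G4A (0.914) and FXYD2 (0.901) for SERPINB2. These values share line and list totals, and n is 16 lists in each.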

How the data were processed

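H3K27ac ChIP-seq was done in 16 samples, each assigned to its group from its title. Per the study's methods, the authors used Trimmomatic for trimming and Bowtie2 for alignment to hg38. They called peaks in each sample with MACS2, with the input subtracted, and bedtools took out blacklisted regions. deepTools is named in the submitters' notes, and versions are not given in the sources used here. Each deposited list holds a position, a score, the fold enrichment (a ratio to local background) and −log10 values of p and q. The score of the deposited lists was not used for tests, and the deposited −log10 q-value served only as a stricter filter. Peak lists hold no reads, so depth is unknown, and DiffBind, which the study ran on reads, was not run. The study's methods call the ChIP-seq replicates biological. The p-values rest on the spread between the 2 lists of a group, pooled over all groups of both lines and moderated over all features. They do not measure the spread of the lists compared alone. The 2 lists of a group shared 0 identical peaks.

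Peaks were merged over the lists (64545 regions), and 55219 that were seen in 2 or more lists entered the counts. Genes were the protein-coding genes of GENCODE 44. Values were the bp under peaks in the gene body extended by 50 kb, tested as log2(bp + 1000) over 17915 genes, the highest fold enrichment within 2 kb of the canonical start (10909 genes) and the highest per region (28337 regions with a peak in all lists). Each was fitted on all 16 lists and 8 group means with limma 3.58.1 (R 4.3.3, eBayes with trend), with Benjamini-Hochberg adjustment over all features and a threshold of 0.05. The scripts were tested on simulated data. Named regions were those over a start site, those gained or lost with TWEAK in control cells and those that passed the region test there, at most 6 per gene. Pathway genes were named where a test called them with TWEAK in control cells, and 1 further gene of that list is not reported here. Members and lists were chosen with earlier results of these data known. The rescaling of fold enrichment and the test of the TWEAK effect between lines were added after seeing the data. RefSeq promoters were matched by symbol for 4 of the 5 genes. The alternatives were other windows, filters, start sites, scalings and models, a replicate block and leaving out each list.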

Additional observations from a re-analysis of the deposited data

Results flagged for a closer look

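Results are given here where the TWEAK effect differed between control and Fn14 KO cells by its own test (limma, adjusted over 28337 regions), as the log2 difference of the effects. Over all regions this test called 14.6% higher and 4.15% lower in MDA-MB-231, and 7.10% higher and 3.50% lower in Hs578T. Only named regions were looked at, and most of them were named because they passed the TWEAK test in control cells. That contrast is part of the difference given here, so the list is not an independent selection. At PLAUR the difference was 1.565 in MDA-MB-231 and 1.189 in Hs578T 5.0 kb upstream, and 0.665 and 0.594 at the start region. At SERPINB2 it was 1.407 and 1.242 at 17.9 kb upstream and 1.001 in MDA-MB-231 at 6.1 kb upstream. At PLAU, MDA-MB-231 gave 1.013 at 22.5 kb upstream, 0.630 at 11.9 kb upstream, 0.553 at the start region and −0.801 at 29.9 kb downstream, and Hs578T gave 0.552 at the start region. The SERPINE2 start region gave 0.839 and PLAT 66.8 kb downstream gave −0.665, both in MDA-MB-231. The MDA-MB-231 Fn14 KO lists had the lowest shared-region medians (6.27 to 7.33). After division by that median, 11 of these 14 differences kept their call, and PLAU at 11.9 kb upstream (MDA-MB-231) and at the start region (both lines) did not.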

How the results depend on the processing

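Over 45 single effects named in the text, 230 of 255 values under other settings and 617 of 720 without 1 list kept direction and call, and the rest kept direction but lost the call, with 0 reversed. Many of these 720 fits left out a list of a group not compared, which cannot change the difference, so the 617 overstate how stable the calls are. Counts of called members moved by over 1.5 times as follows. For the effect of TWEAK in control against KO cells, dividing fold enrichment by the median of all peaks of its list left 2 regions of 4 in Hs578T and 1 promoter of 2 in MDA-MB-231, setting absent peaks to 1 left 1 of 2 promoters, and fitting each line alone left 1 of 2. With start sites set at the 5′ end of the gene record, 2 promoters were called with TWEAK in Hs578T in place of 1, 1 in place of 0 against KO cells, and 2 in place of 1 for KO against control with TWEAK. For length in Hs578T, extending by 10 kb gave 2 calls with TWEAK in place of 1, and a −log10 q of at least 5 gave 0 with TWEAK and 1 of 3 for KO against control. The replicate block, in which lists with the same number were paired, gave 1 promoter in place of 0 for control against KO cells in Hs578T, and the PLAT length call (KO against control, Hs578T TWEAK) was lost (0.366, adjusted p = 0.0527), with no other of these calls changed by the block. Deviations of same-numbered lists correlated at −0.02 to 0.25 over line, genotype and measure. They were above 0.1 only in Hs578T KO cells (0.11 for length, 0.17 for promoters and 0.25 for regions), and since this did not hold for every pair the lists were not treated as paired.

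For gained and lost regions, asking for 50% coverage of a region gave 1, 0 and 1 with TWEAK for the MDA-MB-231 control, MDA-MB-231 KO and Hs578T control (3, 2 and 0 as reported), and 3 and 6 for KO against control in Hs578T untreated and with TWEAK (0 and 2). A −log10 q of at least 5 gave 1 and 7 for KO against control in MDA-MB-231 untreated and with TWEAK (3 and 2), and 1 and 1 in Hs578T. Equal peak numbers gave 1 with TWEAK for the MDA-MB-231 control, 1 for the Hs578T KO and 1 for untreated KO against control in MDA-MB-231. Bins of 500 bp, which count pieces of regions, gave 17, 5, 13 and 4 with TWEAK (MDA-MB-231 control and KO, Hs578T control and KO) and 15, 16, 11 and 32 for KO against control (MDA-MB-231 untreated and TWEAK, Hs578T untreated and TWEAK).

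Without 1 list, region calls with TWEAK ranged from 7 to 12 in MDA-MB-231 (7 without control TWEAK replicate 2) and from 5 to 9 in Hs578T control cells (5 without its untreated replicate 1, for example), those against KO cells from 6 to 10 and from 2 to 4, and those of untreated KO against control from 8 to 16 and from 0 to 1. Promoter calls ranged from 1 to 3 and from 0 to 1 with TWEAK and from 0 to 3 against KO cells in MDA-MB-231. Length calls in Hs578T ranged from 0 to 1 with TWEAK and from 1 to 3 for KO against control. Gained and lost regions ranged from 2 to 5 in MDA-MB-231 KO, 0 to 4 in Hs578T control and 0 to 5 in Hs578T KO cells with TWEAK, and from 3 to 6 and 0 to 2 for untreated KO against control. The cause of these changes was not tested. With 2 lists a group and no reads, counting error cannot be given.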
